A study of Mus musculus with 6 samples.

Results

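Enteroendocrine cells are the hormone-producing cells of the gut epithelium, and 10 genes that mark them were followed in the embryonic mouse midgut with and without *Id2*. The 10 genes are the basic helix-loop-helix (bHLH) factors *Neurog3* and *Neurod1*, the granule proteins *Chga* and *Chgb*, and the hormones *Gcg*, *Gip*, *Sct*, *Cck*, *Sst* and *Ghrl*. A gene was taken up through every probe that the platform annotation names with its symbol alone. By this rule 9 of the 10 genes had a probe, 1 probe each, of 13837 genes with a named probe. *Gcg*, which encodes proglucagon, had none and was not analysed here.

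RNA came from the distal midgut of mouse embryos at mid-gestation (embryonic stage E13.5), either *Id2* wild type (*Id2*+/+, 3 samples) or *Id2* knockout (*Id2*-/-, 3 samples), and the labels call the embryos littermates. Each sample was measured on 1 single-color Applied Biosystems mouse genome survey microarray, ver. 2.0. Every cell of the knockout embryos lacks *Id2*, and the whole segment was used, so the RNA holds epithelium, mesenchyme and enteric nervous system together. The sources used here do not state whether a sample is a single embryo, and the p-values cover only the variation among these samples, which may be technical. *Id2* itself was not analysed here, and the genotypes rest on the labels.

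Enteroendocrine cells arise one by one from epithelial progenitors. bHLH factors turn on the program, first *Neurog3*, which is required for nearly all of them, and then *Neurod1* downstream of it, while Notch signaling and Hes repressors hold neighboring cells back. Id proteins, of which Id2 is one, bind the E protein partners of bHLH factors and keep them from DNA. Differentiating cells then fill dense-core granules, whose matrix is made of chromogranins, with peptide hormones. Which hormone a cell makes depends on its position along the gut and on age. Neurons, including those of the gut wall, also make chromogranins and several of these peptides, so a signal in whole tissue is not tied to 1 cell type.

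E-boxes, the sequence CANNTG to which bHLH factors bind, were looked for in the 250 bases before the start of each gene, taken from RefSeq on GRCm38.p6, where all 10 genes were found. CANNTG reads the same on both strands. An E-box was present in 66.2% of 32851 mouse promoter windows of this length, and the windows of *Neurog3*, *Neurod1*, *Chgb* and *Sst* held 1, that of *Gip* held 2, and those of *Chga*, *Gcg*, *Sct* and *Cck* held 3. *Ghrl* has 4 windows, which held 5, 3, 0 and 0. The form CAGATG, or CATCTG on the other strand, was present in 14.4% of all windows, and occurred in those of *Gcg* (2), *Sct* (1) and *Cck* (1). The palindrome TGACGTCA, known as the cyclic AMP response element and overlapping no E-box, was present in 1.55% of all windows and occurred in those of *Chgb* and *Sst*, where it ended 64 and 40 bases before the start. The 120 bases before the outermost annotated start are shown for *Chgb*, *Sct* and *Cck*, the 3 genes that varied most between arrays among those above background on all of them, from 5′ to 3′ on the strand of the gene with E-boxes and TGACGTCA in capitals. They lie at chr2:132781522-132781641 on the plus strand, at chr7:141279175-141279294 on the minus strand and at chr9:121495695-121495814 on the minus strand.
*Chgb*: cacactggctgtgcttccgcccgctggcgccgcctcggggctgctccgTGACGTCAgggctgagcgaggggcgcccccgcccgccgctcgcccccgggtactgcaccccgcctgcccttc
*Sct*: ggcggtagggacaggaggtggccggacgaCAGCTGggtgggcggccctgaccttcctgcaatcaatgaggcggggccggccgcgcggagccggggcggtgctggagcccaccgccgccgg
*Cck*: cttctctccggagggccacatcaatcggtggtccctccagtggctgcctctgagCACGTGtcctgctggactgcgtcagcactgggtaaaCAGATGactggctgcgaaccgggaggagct
The stretch of *Sct* holds 1 E-box, that of *Cck* holds 2, the second of them in the form CAGATG, and that of *Chgb* holds none and 1 TGACGTCA. These are matches of letters, and binding was not measured here.

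Array values below are log2 of the signal after the authors divided it by the array median, so that 0 is the median spot and 1 unit is a 2-fold change. A probe is called above background where the signal-to-noise score of the scanner software was at least 3 and the spot was not flagged. Of the 33012 probes of an array, 42.1% to 50.1% were above background. In both genotypes the array numbered 1 differed from the rest. Over probes, r was 0.984 between the arrays numbered 1, 0.979 to 0.988 among the other 4, and 0.909 to 0.931 across. Values are therefore also given for pairs of same-numbered arrays. Levels of different genes are not ranked, because probes differ in how strongly they bind.

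At E13.5, 5 of the 9 measured genes were above background on all 6 arrays, and these were *Neurog3*, *Chga*, *Chgb*, *Sct* and *Cck*. *Sst* was above background only on the 2 arrays numbered 1, and *Neurod1*, *Gip* and *Ghrl* on no array. By array, 6, 5 and 5 of the 9 were above background in *Id2*+/+ and 6, 5 and 5 in *Id2*-/- samples. Over all probes named with 1 gene, 46.7% were above background on all 6 arrays and 24.1% on none. The same 5 genes passed at a limit of 2 or of 5. A probe below background says only that the RNA was not detectable with that probe.

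**Figure D1:**
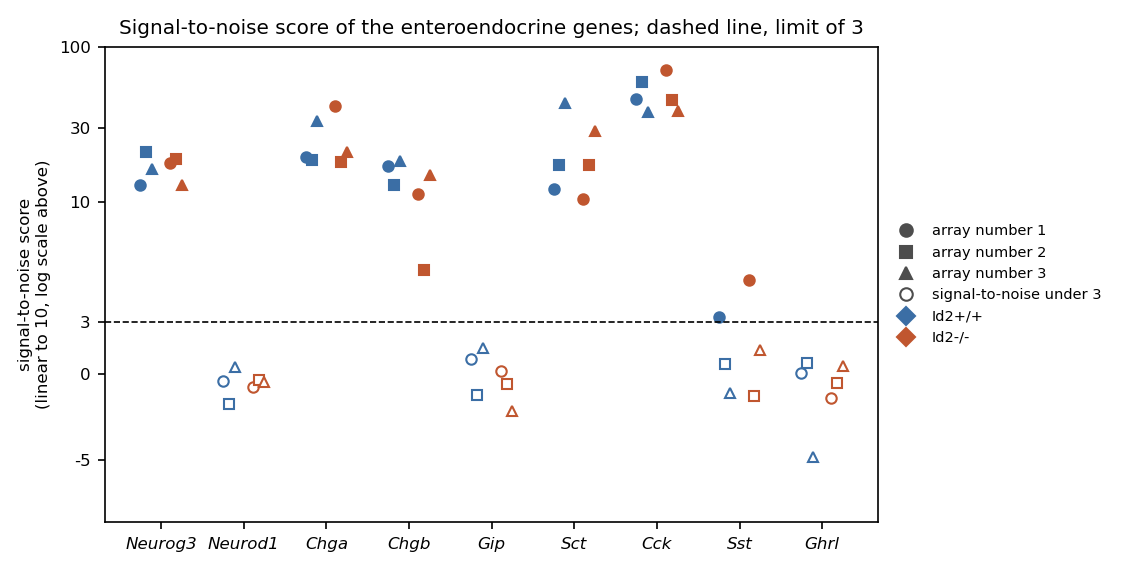
Signal-to-noise score (vertical axis, linear up to 10 and on a log scale above) of the 9 genes with a probe on the 3 *Id2*+/+ (blue) and 3 *Id2*-/- (red) arrays, with the limit of 3 as a dashed line and open points below it. *Neurog3*, *Chga*, *Chgb*, *Sct* and *Cck* lie above the line on every array, *Sst* at 3.32 and 5.42 on the arrays numbered 1, and the other 3 genes below it.

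*Neurog3*, the factor that commits progenitors to the endocrine fate, was on in every sample. Its log2 signal was 1.84, 2.41 and 2.54 on the *Id2*+/+ arrays numbered 1 to 3 and 2.27, 2.07 and 2.66 on the *Id2*-/- arrays, with scores of 12.8 to 20.8. The *Id2*-/- values lay within or just above the *Id2*+/+ range, and the lowest was the *Id2*+/+ array numbered 1. The means were 2.26 ± 0.37 and 2.33 ± 0.30 (SD, n = 3 each). The log2 difference, *Id2*-/- minus *Id2*+/+, was 0.07 (95% interval -0.63 to 0.76), which spans from 0.648 to 1.70 times the wild-type level. It did not pass limma across all tested probes with Benjamini-Hochberg adjustment (adjusted p = 1.0). In the pairs numbered 1, 2 and 3 it was 0.44, -0.34 and 0.12, and it was -0.11 without both arrays numbered 1.

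*Neurod1*, which acts after *Neurog3* as the cells leave the progenitor state, was below background on all 6 arrays. Its scores were -0.42, -1.75 and 0.36 in *Id2*+/+ and -0.79, -0.38 and -0.51 in *Id2*-/- samples. No fold change is given for it.

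The granule genes were on in all samples. *Chga*, which encodes chromogranin A of the dense-core granule, had log2 signals of 3.10, 2.96 and 3.54 in *Id2*+/+ and 3.25, 3.24 and 3.31 in *Id2*-/- samples. All 3 *Id2*-/- values fell inside the *Id2*+/+ range and within 0.08 of each other. The log2 difference was 0.07 (95% interval -0.52 to 0.65), with means of 3.20 ± 0.30 and 3.27 ± 0.04 (SD, n = 3 each) and an adjusted p of 1.0 from limma. In the pairs it was 0.15, 0.28 and -0.23.

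*Chgb*, which encodes the related chromogranin B, had log2 signals of 2.27, 2.63 and 2.80 in *Id2*+/+ and 1.63, 2.38 and 2.42 in *Id2*-/- samples. The *Id2*-/- value was the lower in every pair, by -0.64, -0.24 and -0.38, although the ranges of the genotypes overlapped. The means were 2.57 ± 0.27 and 2.14 ± 0.44 (SD, n = 3 each). The log2 difference of -0.42 (95% interval -1.15 to 0.30) did not pass limma (adjusted p = 1.0, unadjusted p = 0.211). It was -0.17 without the *Id2*-/- array numbered 1, whose signal was the lowest of the 6.

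Among the hormones, *Sct* and *Cck* were on in all samples. *Sct*, which encodes secretin, the hormone that calls bicarbonate from the pancreas, had log2 signals of 2.33, 2.91 and 4.27 in *Id2*+/+ and 2.31, 2.80 and 2.89 in *Id2*-/- samples. The *Id2*+/+ array numbered 3 stood above the rest, and the other 5 values lay between 2.31 and 2.91. The means were 3.17 ± 1.0 and 2.67 ± 0.31 (SD, n = 3 each). The log2 difference of -0.50 (95% interval -1.67 to 0.66, adjusted p = 1.0 from limma) was -0.02, -0.11 and -1.38 in the pairs, and it turned to 0.05 without that array.

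*Cck*, which encodes cholecystokinin, the hormone that contracts the gallbladder and is also a neuropeptide, had log2 signals of 5.12, 4.07 and 3.74 in *Id2*+/+ and 5.06, 4.63 and 4.11 in *Id2*-/- samples. The arrays numbered 1 held the highest value of each genotype, on average 0.95 above the other 4 arrays. The means were 4.31 ± 0.72 and 4.60 ± 0.48 (SD, n = 3 each). The log2 difference of 0.29 (95% interval -0.71 to 1.29, adjusted p = 1.0 from limma) was -0.06, 0.56 and 0.37 in the pairs. It was 0.69 without the *Id2*+/+ array numbered 1, 0.06 without the *Id2*-/- array numbered 1, and 0.46 without both. Without the *Id2*+/+ array numbered 3 it was 0.0034, and without the *Id2*-/- array numbered 3 0.53.

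*Sst*, which encodes somatostatin, the inhibitory peptide of D cells and of some neurons, had log2 signals of -0.23, -1.04 and -0.95 in *Id2*+/+ and 0.89, -1.18 and -1.42 in *Id2*-/- samples. Only the first value of each genotype was above background, with scores of 3.32 and 5.42, and *Sst* was not tested. *Gip*, which encodes the incretin of K cells, had scores of -2.17 to 1.47. *Ghrl*, which encodes the appetite hormone ghrelin, had scores of -4.85 to 0.61, and its spot was flagged on the *Id2*+/+ array numbered 3.

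**Figure D2:**
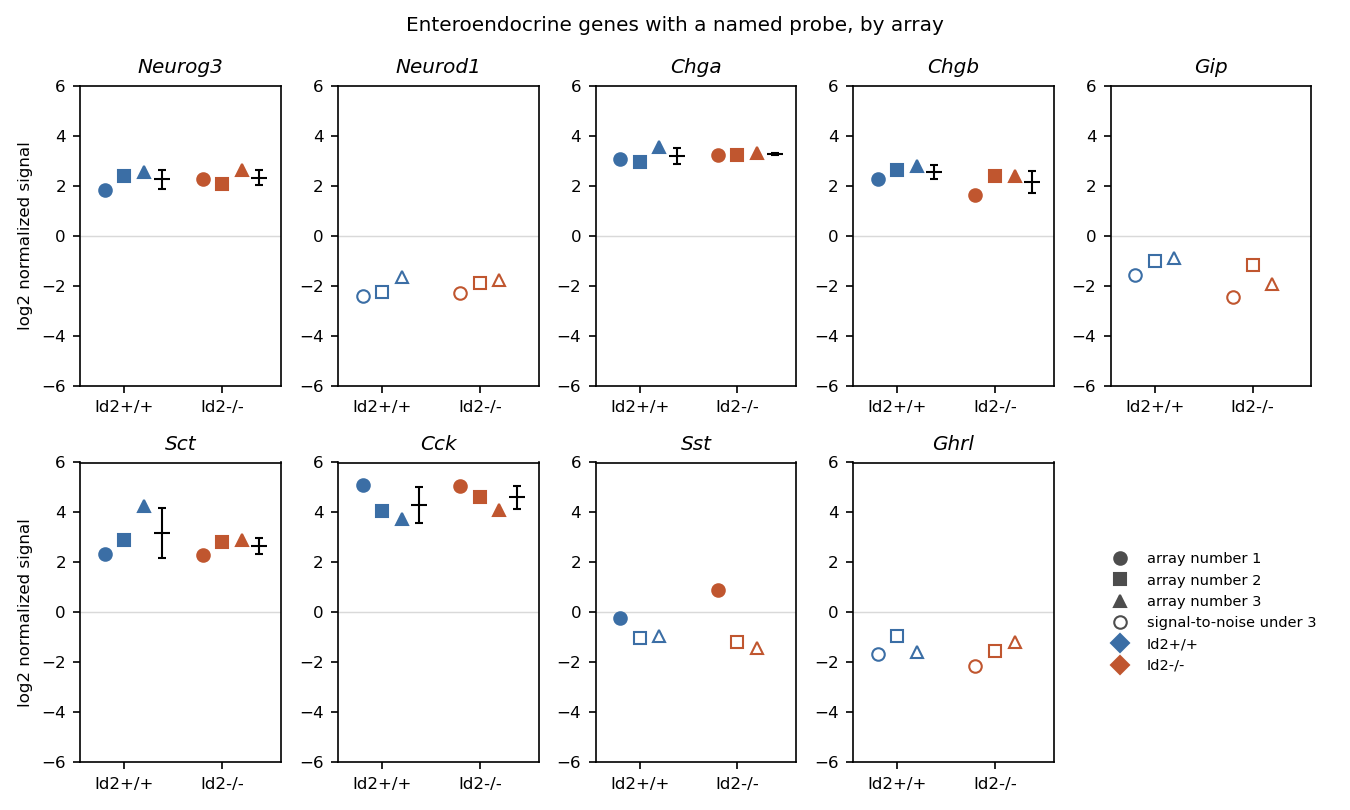
Log2 normalized signal (vertical axis) of the 9 genes with a probe on the 3 *Id2*+/+ (blue) and 3 *Id2*-/- (red) arrays, with the array number as the shape of the point, open points below background, and black bars and error bars for the mean and SD of the 5 genes above background on all arrays. The *Id2*+/+ and *Id2*-/- points overlap for each gene, and the *Id2*+/+ array numbered 3 stands out at 4.27 for *Sct*.

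None of the 5 tested genes differed between the genotypes beyond the spread of the arrays. Limma called 0 of the 5 without a block for the array number and 0 with it, and 0 had an unadjusted p under 0.05 in either fit or in the plain two-sample test of the study's methods. Over all 12741 tested probes it called 0.0% without the block, with 234 at an unadjusted p under 0.05, and 2.18% with it. The intervals do not reach a 2-fold change in either direction for *Neurog3* and *Chga*. They reach below a 2-fold lower level for *Chgb* and *Sct* and above a 2-fold higher level for *Cck*, so differences of that size in these 3 genes could not be told from none with 3 arrays a genotype. With 3 arrays in each genotype, the smallest two-sided p that an exact permutation test allows is 0.1.

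**Figure D3:**
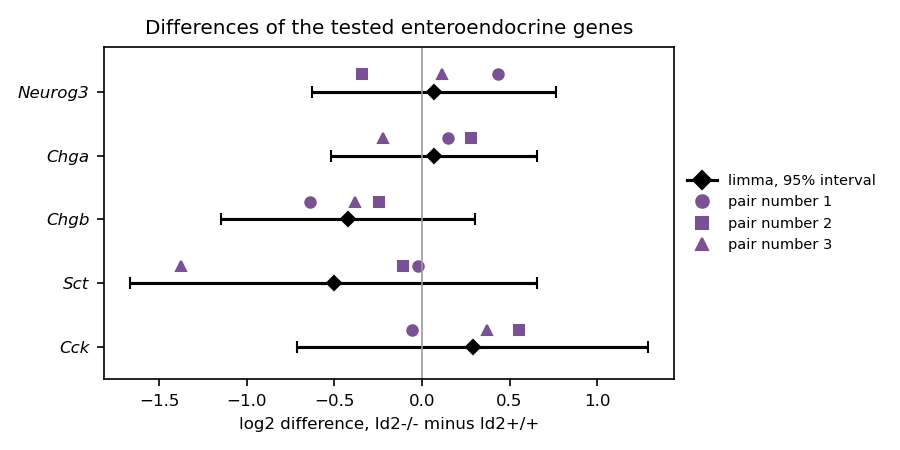
Log2 difference, *Id2*-/- minus *Id2*+/+ (horizontal axis), of the 5 tested genes, with diamonds and lines for the limma estimate and its 95% interval and purple points for the 3 same-numbered pairs. Each interval contains 0, and *Chgb* and *Sct* are the genes with all 3 pairs below 0.

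Of 15 other gut hormone genes and genes of their synthesis, 11 had a probe and 0 were above background on all 6 arrays. *Pyy*, which encodes peptide YY of the distal gut, and *Gast*, which encodes gastrin, were above background on 3 arrays each, 2 of them *Id2*+/+. *Guca2a* was above background on 4 arrays, *Guca2b* on 2, and *Adm2* on 1. *Nts*, *Tac1*, *Insl5*, *Ppy*, and *Tph1* and *Tph2*, which encode the enzymes that start serotonin synthesis, were above background on no array. None of these genes was tested.

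Of 27 genes for factors of the endocrine lineage, 23 had a probe, 9 were above background on all 6 arrays and 10 were tested. *Isl1*, *Insm1*, *Rfx6*, *Myt1*, *Etv1*, *Sox4*, *St18*, *Runx1t1* and *Mnx1* were on in all samples, and *Pax4*, *Pax6*, *Nkx6-1*, *Rfx3*, *Hhex* and *Prox1* in none. Of the 10, limma called 0 without the block, and the median log2 difference was 0.15 against 0.04 over all tested probes. *Rfx6*, which acts after *Neurog3* in endocrine cells of gut and pancreas, had the lowest difference, -0.39 (95% interval -1.28 to 0.50). Its log2 signals were 1.45, 2.87 and 2.31 in *Id2*+/+ and 1.75, 2.0 and 1.71 in *Id2*-/- samples, so the ranges overlapped. *Insm1*, a zinc finger gene downstream of *Neurog3*, differed by 0.13 and *Isl1*, a LIM homeobox gene, by 0.11. The largest difference was that of *Foxa2*, the endoderm factor, with log2 signals of -0.56, -0.17 and -1.10 in *Id2*+/+, all below background, and 1.18, 1.64 and 1.62 in *Id2*-/- samples, all above it. It entered the test only through the *Id2*-/- arrays, which favors a positive difference. It did not pass limma (adjusted p = 0.598), passed with the block (adjusted p = 2.59e-11) and did not with the block and quantile normalization together (adjusted p = 0.363).

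Of 29 granule and secretory genes, 25 had a probe and 13 were above background on all 6 arrays. Among these were *Scg3* and *Scg5*, which encode granins, *Cpe* and *Pam*, which encode enzymes that trim and amidate peptide hormones, *Pcsk1n*, which encodes an inhibitor of prohormone convertase, and *Rab3a*, which encodes a GTPase of the vesicle surface. The 13 genes had a median log2 difference of -0.02, with 5 positive and 8 negative values. *Scg3* differed by -0.19, *Scg5* by -0.13, *Cpe* by -0.06 and *Pcsk1n* by 0.18. *Syt4*, which encodes a synaptotagmin, had the lowest difference at -0.36. *Ptprn*, which encodes a granule membrane protein and exceeded background on 2 *Id2*+/+ arrays and all 3 *Id2*-/- arrays, had the highest at 0.90. Limma called 0 of the 14 tested genes without the block and *Ptprn* with it (adjusted p = 0.0488), but not with quantile normalization added (adjusted p = 0.740), and *Ptprn* entered the test only through the *Id2*-/- arrays. *Pcsk1*, which encodes the convertase itself, was above background on 1 array.

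Of 13 receptor genes for these hormones, 9 had a probe and 2 were on in all samples. *Cckar*, which encodes the peripheral receptor of cholecystokinin, had log2 signals of 2.59, 4.06 and 4.57 in *Id2*+/+ and 2.29, 3.54 and 3.88 in *Id2*-/- samples. It was lower in every pair, by -0.30, -0.52 and -0.69, with overlapping ranges and a log2 difference of -0.50 (95% interval -1.93 to 0.92, adjusted p = 1.0 from limma). On the arrays numbered 1, where *Cck* had its highest signals, *Cckar* had its lowest. *Sstr4*, which encodes a somatostatin receptor, differed by 0.54 (95% interval -0.85 to 1.93, adjusted p = 1.0 from limma), with 1.49, 0.23 and -0.10 in the pairs, and by -0.16 without the *Id2*+/+ array numbered 1. A second probe of this gene was below background on all arrays. *Sstr1*, *Sstr3*, *Ghsr*, *Glp1r* and *Gcgr* were above background on no array.

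The bHLH and Notch genes that set how many cells take the endocrine fate were measured as well. Of 29, 26 had a probe and 10 were above background on all 6 arrays, and 13 were tested. Of the 13, 11 had a positive and 2 a negative difference, where 60.4% of all tested probes were positive, and the median was 0.18 against 0.04 over all tested probes. The 2 negative genes, *Dll4* and *Bhlha15*, entered the test only through the *Id2*+/+ arrays, which favors a negative difference. The 10 genes above background on all 6 arrays were all positive, with a median of 0.23. The share of positive probes was not computed for all probes above background on all 6 arrays, so this count has no matching share. In the pairs numbered 1, 2 and 3 the median of the 13 was 0.48, 0.11 and 0.15, against 0.35, -0.04 and -0.19 over all tested probes. Limma called 0 of the 13 with or without the block. *Hes1*, which encodes the Notch target that represses *Neurog3*, had log2 signals of 6.19, 6.61 and 6.30 in *Id2*+/+ and 7.02, 6.60 and 6.55 in *Id2*-/- samples. The ranges overlapped and the log2 difference was 0.35 (standard error 0.26, adjusted p = 1.0 from limma). *Hes5*, which encodes a related repressor and is named here because of its values, was at 1.87, 1.86 and 1.81 in *Id2*+/+ and at 2.51, 2.34 and 2.50 in *Id2*-/- samples. Its ranges did not overlap, but its log2 difference of 0.60 (95% interval 0.09 to 1.11) failed limma in the fit that has no block (adjusted p = 1.0, unadjusted p = 0.0267) and with the block (adjusted p = 0.509). *Dll1*, which encodes a Notch ligand, had the highest difference of the list at 0.63, and *Bhlha15* had the lowest at -0.17. From pair 1 to pair 3 the differences of *Dll1* were 1.76, 0.09 and 0.05. The 1.76 was measured against a spot below background, with a score of 1.53 on the *Id2*+/+ array numbered 1. *Dll1* thus entered the test only through the *Id2*-/- arrays, which favors a positive difference. *Atoh1*, the bHLH gene of the secretory lineage, was above background on 1 array. *Neurog1*, a relative of *Neurog3* better known from neurons, was above background on all 6 and differed by 0.18. *Id1*, the paralog of *Id2*, had log2 signals of 5.73, 4.66 and 4.87 in *Id2*+/+ and 6.21, 5.25 and 5.37 in *Id2*-/- samples. It was higher in all 3 pairs, by 0.48, 0.60 and 0.51, with overlapping ranges, and did not pass limma with the block (adjusted p = 0.757) or in the fit that has none (adjusted p = 1.0). The E protein genes *Tcf4* and *Tcf12* differed by 0.09 and 0.14. At an unadjusted p under 0.05 in limma without the block were *Foxa2*, *Hes5*, *Nefm*, a neurofilament gene, and *Clps*, the colipase gene of the pancreas, of all 78 tested probes of the lists, and 0 passed after adjustment. *Foxa2*, *Nefm* and *Clps* were below background on 3, 2 and 2 of the *Id2*+/+ arrays and entered the test only through the *Id2*-/- arrays, which favors a positive difference.

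**Figure D4:**
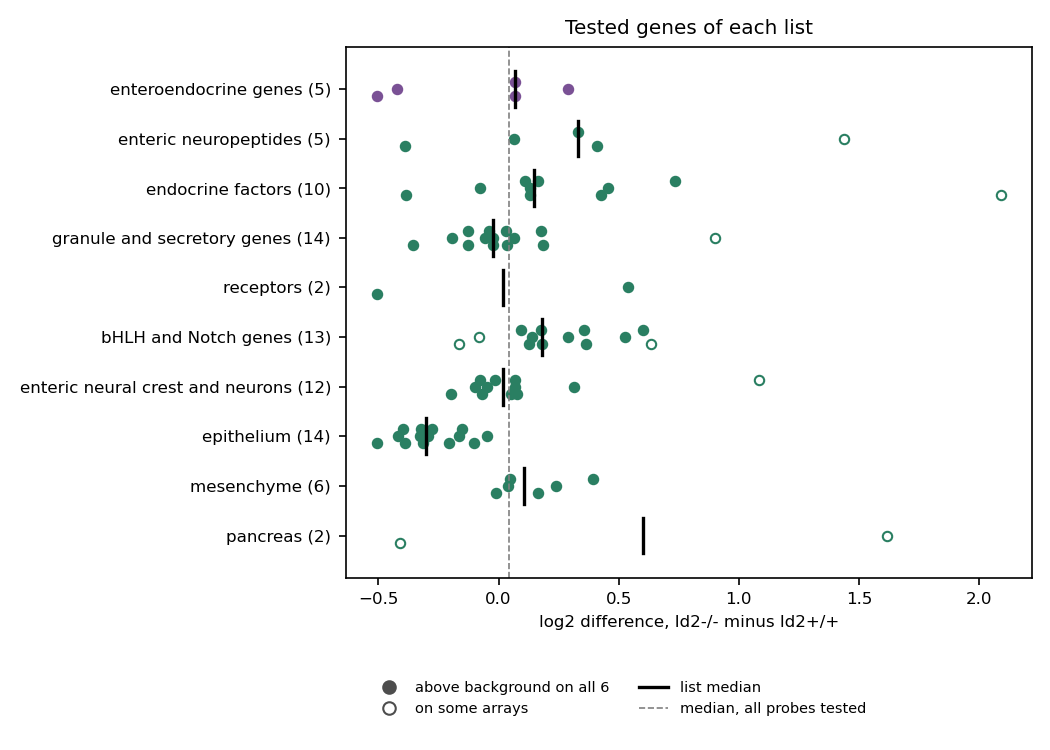
Log2 difference, *Id2*-/- minus *Id2*+/+ (horizontal axis), of each tested gene of the lists (number tested in brackets), with filled points for genes above background on all 6 arrays, open points for genes above it on some, black bars for the median of a list and a dashed line for the median over all tested probes at 0.04. The 14 epithelial genes all lie below 0, and the points farthest to the right are genes above background on some arrays only.

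Markers of the other cell types in the segment moved with the arrays. Of 16 epithelial genes, 15 had a probe, 14 were above background on all 6 arrays and *Cdx1* on none. Limma called 0 of the 14 with or without the block, with differences of -0.51 to -0.05, where 39.6% of all tested probes were negative, and a median of -0.30. That median was 0.47, -0.48 and -0.84 in the pairs numbered 1, 2 and 3, whereas the median over all tested probes was 0.35, -0.04 and -0.19. The signals of the 14 genes summed to 615 to 1746 array medians in *Id2*+/+ and to 864 to 1010 in *Id2*-/- samples. The sum was highest on the *Id2*+/+ array numbered 3, where *Sct* and *Chgb* had their highest values. It was the lowest of each genotype on the arrays numbered 1, where *Sct* and *Chgb* also had the lowest values of each genotype. Bright genes weigh most in this sum, and within *Id2*-/- samples single genes went both ways. There *Krt19* was at 4.97 on the array numbered 1 against 4.39 and 4.53 on the others, and *Vil1* at 4.33 against 5.19 and 5.52. The sum of the 6 tested mesenchymal genes was likewise lowest on the arrays numbered 1 in each genotype, at 2442 array medians in *Id2*+/+ and 3172 in *Id2*-/-. By these sums the low level was not particular to the epithelium, but single mesenchymal genes went both ways. On average the arrays numbered 1 were lower for *Col1a1*, *Col3a1*, *Vim*, *Acta2* and *Foxf2*. They were higher by 0.34 for *Pdgfra* and by 3.14 for *Foxf1*, which was not among the tested genes. The mesenchymal sum was highest on the *Id2*+/+ array numbered 2, at 4552. The part of the epithelium in the values of *Sct* and *Chgb* was not tested. In whole tissue, fewer cells of a type and less RNA per cell cannot be told apart.

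Of 16 genes of the enteric neural crest and neurons, 12 had a probe, 11 were above background on all 6 arrays, and the 12 tested genes summed to 758 to 1118 array medians in *Id2*+/+ and to 906 to 1026 in *Id2*-/- samples. Their median difference was 0.02, and limma called 0 of the 12 without the block and *Nefm* with it. On the arrays numbered 1 the neural genes went both ways. On average over both genotypes, 8 of the 12 were higher than on the other arrays, up to 2.50 for *Ret*, and 4 lower, down to -1.16 for *Elavl4*. Their sum was lowest on the *Id2*+/+ array numbered 1, whereas *Cck* was highest there. Another summary, the median of the 12 genes after subtracting the mean of each gene, was 0.01 on that array. This median was lowest on the *Id2*+/+ array numbered 2, at -0.17. It was highest on the *Id2*-/- array numbered 1, at 0.35, where *Cck* was highest of its genotype. Of the 14 epithelial genes, 13 were lower on the arrays numbered 1, on average over both genotypes. Within *Id2*-/- samples they went both ways. *Krt18*, *Krt19*, *Elf3* and *Spint2* were higher on the array numbered 1 than on either other array. *Epcam*, *Cdh1*, *Krt8*, *Cldn3*, *Cldn4*, *Esrp1* and *Vil1* were lower, and *Cldn7*, *Spint1* and *Cdx2* lay between the others. The part of the neurons in the values of *Cck* was not tested. Of 13 genes for neuropeptides of the gut wall, *Vip*, *Gal*, *Penk* and *Cartpt* were above background on all 6 arrays. Of the 5 tested ones limma called 0 without the block and *Tac2* with it. Of 11 genes of the pancreas, 8 had a probe and 0 were above background on all 6 arrays, with summed signals of the 2 tested genes of 1.74 to 18.0 in *Id2*+/+ and 3.98 to 8.34 in *Id2*-/- samples. *Ins2* and *Pdx1* were above background on 1 array each. The 6 tested mesenchymal genes had a median difference of 0.11.

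**Figure D5:**
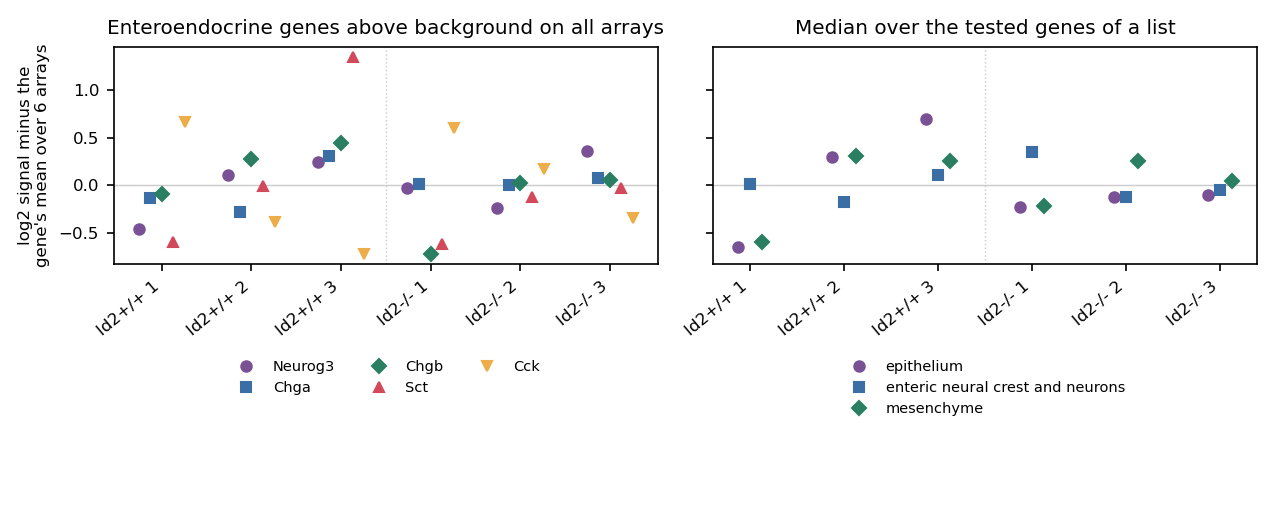
Log2 signal minus the mean of the gene over the 6 arrays (vertical axis) by array, for the 5 genes above background on all arrays on the left and for the median over the tested genes of the epithelial, neural and mesenchymal lists on the right. *Cck* is high and *Sct* and the epithelial and mesenchymal medians are low on both arrays numbered 1. *Sct* at 1.35 and the epithelial median at 0.70 are highest on the *Id2*+/+ array numbered 3.

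The genes most like an enteroendocrine gene in pattern over the 6 arrays were found for the 3 that varied by at least 1 log2 unit. The measure was the root mean square distance between log2 values centered on the mean of each gene. Candidates were 6732 probes of other genes, each named with 1 gene and above background on all arrays. For *Cck* the most alike genes were *Hip1*, at a distance of 0.115, *Samd5* at 0.132 and *H4c6*, a histone gene, at 0.135. The median over all candidates was 0.606. *Hip1* had log2 signals of 2.15, 0.96 and 0.63 in *Id2*+/+ and 2.27, 1.53 and 1.07 in *Id2*-/- samples, so it was also highest on the arrays numbered 1. For *Sct* they were *Slc22a18*, which encodes a transporter, at 0.201, *Mt1*, which encodes a metallothionein, at 0.227 and *Tmprss4*, which encodes a transmembrane serine protease, at 0.241, against a median of 0.655. *Tmprss4* was likewise highest on the *Id2*+/+ array numbered 3, at 3.18. For *Chgb* they were *Rpl22l1*, *Smtnl2* and *4921507P07Rik* at 0.127, 0.128 and 0.135, against a median of 0.469. With 6 arrays, such likeness is a description of these samples only.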

How the data were processed

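The labels assign 3 arrays to each genotype. The intensity of each spot, a signal-to-noise score and a quality flag were deposited as the scanner software gave them, and the authors divided each intensity by the median of its array, so the normalized value is a ratio to that median. The table deposited for the whole series holds the same ratios (largest difference 0). Per the study's methods, flags under 5000 and scores under 3 were left out; here spots with flags of 5000 or higher were the ones treated as bad, the reverse of the stated direction. Gene names come from the platform annotation, updated through the RefSeq table (GRCm38.p6): 14411 of 33012 probes are named with 1 symbol, 247 with several and 18354 with none.

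From these values log2 was taken and tested with limma 3.58.1 in R 4.3.3 (lmFit, eBayes, Benjamini-Hochberg at 0.05), *Id2*-/- minus *Id2*+/+, without a block, over the 12741 probes that were unflagged throughout and reached a score of 3 on every array of either genotype. The fit was tested on simulated data with independent noise for each array. That simulation held no deviation shared by same-numbered arrays, so how the fits behave under such a deviation was not tested. A gene with several probes enters a list through its brightest tested probe. The genes followed and the gene lists were chosen with earlier results of these data known. Named are all 10 genes, some of the genes of the lists on hormones, endocrine factors, granules, receptors, and bHLH and Notch that were above background on all arrays, the largest difference of each list in each direction, and the 3 genes most alike in pattern; genes called at or below background, those called only with the block, and genes of the other lists were named after their values were seen. After subtracting the genotype mean, same-numbered arrays correlated at r = 0.838, 0.644 and 0.579, and the numbers were treated as pairs, although *Id2*+/+ number 2 and *Id2*-/- number 3 correlated at 0.638. The alternatives were quantile normalization, other limits on dim probes, an offset of 0.5, the series table, the replicate block with and without quantile normalization, a trended robust prior, the two-sample test of the study's methods and leaving out each array. With 3 arrays a genotype, precision is low. Slide and scan were not used here as blocks. Figures were drawn with matplotlib 3.10.9.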

Additional observations from a re-analysis of the deposited data

How the results depend on the processing

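Over all tested probes, the replicate block (array number as a block) gave 278 calls in place of 0, and 0 once quantile normalization was added; under the block limma estimated an infinite prior df, which gives all probes the same standard error of 0.27. The two-sample test of the study's methods gave 242 probes at an unadjusted p under 0.05 and 0 after adjustment. Among the listed genes outside the 10 enteroendocrine ones, the replicate block gave 5 calls in place of 0 (*Tac2*, *Foxa2*, *Ptprn*, *Nefm* and *Clps*, all higher), and 0 with quantile normalization. Each of the 5 entered the test only through the *Id2*-/- arrays, which favors that direction. Among the enteroendocrine genes no setting gave a call, with adjusted p down to 0.446 for *Chgb*. In this balanced design the block, the prior, the limits on dim probes, the series table and the two-sample test leave a difference of means as it is. Under the other settings, 45 of 50 recomputed differences of the 5 tested genes kept their direction and 5 turned. These 50 include quantile normalization both with and without the block, which give the same differences, so those are counted again. Leaving out each array gave -0.14 to 0.21 for *Neurog3*, -0.0515 to 0.24 for *Chga*, -0.57 to -0.17 for *Chgb*, -0.92 to 0.0453 for *Sct* and 0.0034 to 0.69 for *Cck*. The turns came without the *Id2*+/+ array numbered 1 or the *Id2*-/- array numbered 3 for *Neurog3*, without the *Id2*+/+ array numbered 2 for *Chga*, and without the *Id2*+/+ array numbered 3 for *Sct*. Without both arrays numbered 1, an alternative chosen after seeing the data, like the value of *Sstr4* without an array, *Neurog3* was at -0.11, and the other 4 genes kept their direction. The cause of these turns was not tested beyond the samples left out. The count of 5 genes above background on all arrays was the same at limits of 2 and 5. Signals near background limit what can be said of *Sst*, *Gip*, *Ghrl* and *Neurod1*.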
